A study of Drosophila melanogaster with 2 samples.

Results

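The regions described here were binding peaks of the mesoderm factor Twist that stood high in one biological replicate of an embryo experiment and had no equally high counterpart in the other. The peaks with the highest deposited signal value were taken from each replicate, as many as in the authors' final list, and a replicate 1 peak was kept when no summit among those of replicate 2 lay within 100 bp of its own summit. This left 1703 peaks, while 4813 high peaks of replicate 1 had such a counterpart, out of 30000 peaks in its list. The members were therefore chosen by the signal ranks in both replicates, and those ranks are given below as a description, without a test. The embryos came from a transgenic Drosophila melanogaster line that stably expresses Twist with GFP at its C-terminus, and chromatin was precipitated with an anti-GFP antibody. There was 1 group with 2 biological replicates of whole embryos of both sexes pooled, 2 to 12 h old by their source name, and no other genotype, stage or antibody. A separate age field of the labels gives a far higher number of hours, which was not used. Every tissue of the embryo contributed chromatin, and what drives the transgene was not given in the sources used here. As references serve 2 sets. One is the 4813 high peaks of replicate 1 with a counterpart, called shared, and the other is the 1702 high peaks of replicate 2 with no high replicate 1 summit within 100 bp. Peak lists carry no read counts, so depth is unknown, and with 1 list per replicate no difference between the sets has an error between replicates. The 95% Wilson intervals cover the counting of peaks only.

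Twist is a basic helix-loop-helix protein that turns on the mesoderm programme of the early embryo, including genes of gastrulation, heart and muscle. It binds E-boxes, the short motif family read as CANNTG. Promoters of genes that most cells use often carry other elements in flies. These include the DNA replication-related element (DRE), bound by DREF, and the elements named Motif 1 and Motif 7, and they are distinct from the TATA box of many regulated genes.

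The following summit windows show the kinds of sequence met among the members. All are the plus strand of dm6 from 50 bp before to 50 bp after a replicate 1 summit. The first group holds the 4 highest members with CATATG or CACATG that could be shown, with these 2 words in capitals and any other CANNTG in lower case. They lay in an intron of Dhc64C, the heavy chain of cytoplasmic dynein (chr3L:4824776-4824876), 419 bp upstream of a start of CG9254 (chr2L:13597555-13597655), 6088 bp upstream of CG42571 (chr3L:15710315-15710415) and 200 bp upstream of htk (chrX:18848764-18848864). The second group holds the 4 highest promoter members with a DRE, Motif 1 or Motif 7 match, in capitals, on either strand. Motif 7 lay at Regnase-1, an RNase (chr3R:20036101-20036201). DRE lay at mxc, a histone locus body protein (chrX:9243509-9243609), and at Sfmbt, a Polycomb group protein (chr2L:13176843-13176943). Motif 1 lay at Mical, an enzyme that acts on actin (chr3R:10042925-10043025), whose window also held CATATG, shown in lower case. The last pair are the highest members with neither kind of motif, at numb, a cell fate determinant that inhibits Notch (chr2L:9449637-9449737), and at Ino80, a chromatin remodeller (chr3R:19403221-19403321). They carry no capitals.
Dhc64C: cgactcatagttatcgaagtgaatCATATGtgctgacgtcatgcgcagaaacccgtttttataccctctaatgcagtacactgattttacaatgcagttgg
CG9254: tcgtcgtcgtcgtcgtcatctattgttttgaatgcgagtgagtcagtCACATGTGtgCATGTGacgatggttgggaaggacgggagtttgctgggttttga
CG42571: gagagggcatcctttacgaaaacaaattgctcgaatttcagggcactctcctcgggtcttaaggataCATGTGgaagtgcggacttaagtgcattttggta
htk: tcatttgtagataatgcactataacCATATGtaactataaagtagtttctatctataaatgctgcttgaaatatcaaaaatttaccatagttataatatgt
Regnase-1: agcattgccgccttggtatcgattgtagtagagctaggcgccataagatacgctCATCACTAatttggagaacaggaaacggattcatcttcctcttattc
mxc: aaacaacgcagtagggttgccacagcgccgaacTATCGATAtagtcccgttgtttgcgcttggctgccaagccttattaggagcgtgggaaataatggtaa
Mical: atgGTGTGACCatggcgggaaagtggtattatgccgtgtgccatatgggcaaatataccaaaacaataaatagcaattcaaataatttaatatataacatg
Sfmbt: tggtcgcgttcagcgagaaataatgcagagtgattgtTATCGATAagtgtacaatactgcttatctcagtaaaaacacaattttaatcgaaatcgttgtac
numb: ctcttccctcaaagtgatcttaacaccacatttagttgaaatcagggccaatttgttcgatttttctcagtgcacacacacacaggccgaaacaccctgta
Ino80: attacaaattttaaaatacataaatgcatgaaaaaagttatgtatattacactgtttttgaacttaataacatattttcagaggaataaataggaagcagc

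The members were thinly spread at the top of the replicate 1 list and dense at its lower end. The high ranks were split into 4 ranges of 1629. Members made up 48 of the highest range, or 2.95%, then 213 (13.1%), 519 (31.9%) and 923 (56.7%). Their ranks ran from 290 to the last one taken, with a median of 5048. Their signal values ran from 730.401 to 106.682 with a median of 130.469, on a scale the sources do not state, where the highest peak of the list had 3199.21. The last member inside the limit lay beside lncRNA:CR43963 at 106.682, and the first row outside, beside lncRNA:CR13130, had 106.678. In replicate 2 the corresponding limit fell between 75.505 and 75.4795. The limit on distance was equally close, since 53 members lay at most 10 bp beyond it from a high replicate 2 summit and 79 shared peaks lay less than 10 bp inside it.

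Most members were not missing from replicate 2. A replicate 2 summit of some rank lay within 100 bp of 1137 members, or 66.8% (95% interval 64.5 to 69.0%), at a median replicate 2 rank of 8931. For 277 members that rank was among the 1000 just beyond the limit. In the list called on both replicates pooled, 1473 members (86.5%) had a summit within 100 bp, and in the list that passed the authors' irreproducible discovery rate (IDR) threshold 981 had one (57.6%). The IDR share was 98.8% for shared peaks and 44.1% for the high peaks of replicate 2 only. These lists were derived from the same libraries, so the shares describe how they were built.

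After the data were seen, the members were divided into 4 kinds by what replicate 2 held nearby. The commonest kind, 947 members (55.6%), had a lower-ranked replicate 2 summit within 100 bp and no high one within 500 bp. Their median replicate 2 rank was 8781. Another 411 (24.1%) had a high replicate 2 summit over 100 and up to 500 bp away, so that the same neighbourhood was high in both replicates with summits at different places. A further 142 (8.34%) had only a lower-ranked replicate 2 summit at that distance. The remaining 203 (11.9%, 95% interval 10.5 to 13.5%) had no replicate 2 summit of any rank within 500 bp. Among the high peaks of replicate 2 only, 77 (4.52%, 3.63 to 5.62%) had no replicate 1 summit within 500 bp.

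**Figure D1:**
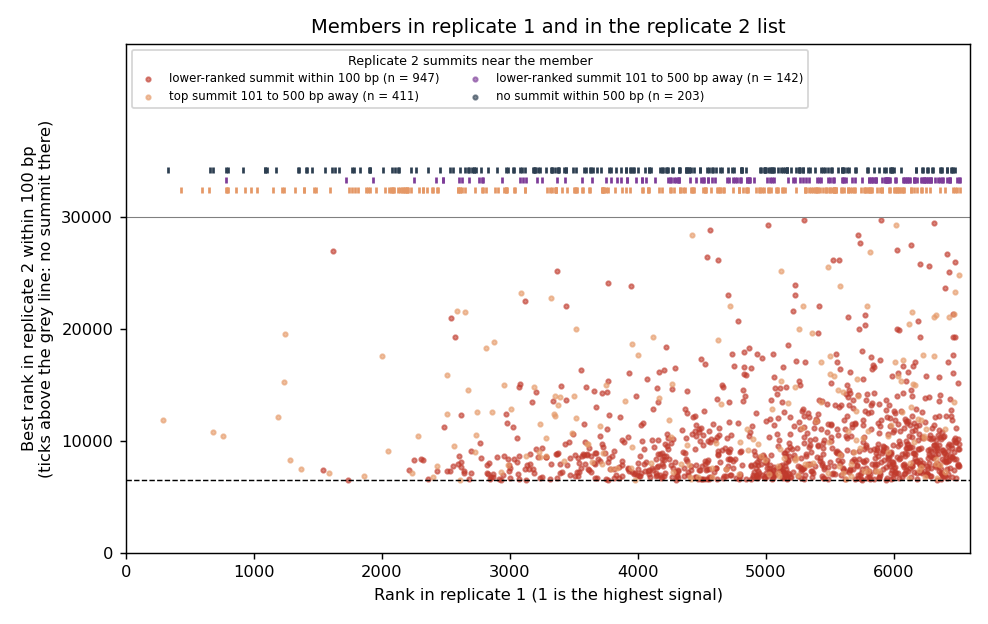
Rank of each of the 1703 members in replicate 1 (x axis, 1 is the highest signal) against the best rank of a replicate 2 summit within 100 bp (y axis), coloured by the 4 kinds. The dashed line is the limit of the high ranks in replicate 2, ticks above the grey line are members without a replicate 2 summit within 100 bp, and most points lie just above the dashed line at the lower end of replicate 1, with a median replicate 2 rank of 8931.

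The 20 highest members showed these kinds side by side. The highest lay 143 bp upstream of a start of numb, at rank 290 with a signal of 730.401, and its replicate 2 summit 82 bp away ranked 11845, with a high one 117 bp away. The second, 118 bp upstream of Ino80, ranked 331 with 672.967, and the nearest replicate 2 summit of any rank was 20319 bp away. Both were promoter peaks, but only the first had a high neighbour in replicate 2.

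The intronic member of Dhc64C ranked 435 and lay 223 bp from a high replicate 2 summit. That of Tet, which encodes a dioxygenase of the TET family, ranked 594 and lay 168 bp from one. A member 393 bp upstream of cnn, a centrosome protein, ranked 653 with a high replicate 2 summit 270 bp away. In these 3 cases replicate 2 was high within 500 bp of the member, with its summit at another place. Whether replicate 1 also had a summit at that place was not examined.

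The promoter member of amon, a prohormone convertase, ranked 660 at 226 bp upstream, with no replicate 2 summit nearer than 76434 bp. The promoter member of CG32115 ranked 680 with none nearer than 63668 bp, and that of CG1227 ranked 797 with none nearer than 87285 bp. These were the members of the 20 that lay farthest from any replicate 2 peak, together with Ino80.

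The member 87 bp upstream of a start of Eip75B, a nuclear receptor of the ecdysone response, ranked 685 and had a replicate 2 summit of rank 10798 at 57 bp and a high one at 149 bp. An intergenic member 2135 bp from Act87E, a muscle actin gene, ranked 783 and lay 143 bp from a high replicate 2 summit. An intronic member of hth, a homeodomain cofactor of Hox proteins, ranked 790 and lay 119 bp from one. The other members of the 20 had their nearest start at CG9254, Acsf2, barc, PRAS40 (an inhibitor of TORC1), Cdep, CG14352, CG11811, lncRNA:CR45962 and APP-BP1 (a subunit of the enzyme that activates NEDD8).

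Promoters were the most frequent place of the members. A summit within 500 bp of an annotated start was counted as promoter, and 843 members, 49.5% (95% interval 47.1 to 51.9%), lay there. The share was 38.9% (37.5 to 40.3%) for shared peaks and 32.7% (30.5 to 35.0%) for peaks of replicate 2 only, and the 3 intervals do not overlap. Introns held 30.6% of members, against 39.0% and 42.3%, and intergenic sequence held 16.5%, against 18.3% and 19.8%. The median distance to the nearest start was 521 bp for members, 1070 bp for shared peaks and 1429 bp for replicate 2 only. Since members rank lower than shared peaks by the rule, the shares were also taken within the 4 rank ranges. From the highest range down they were 60.4, 59.6, 50.5 and 46.0% for members and 43.3, 38.7, 37.3 and 32.0% for shared peaks. The promoter share was thus higher for members in each range. Among the 4 kinds it ran from 43.8% for members with a high summit nearby to 64.0% for those with no replicate 2 summit within 500 bp. The matching peaks of replicate 2 with no replicate 1 summit within 500 bp were also mostly at promoters, 43 of 77 (55.8%).

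**Figure D2:**
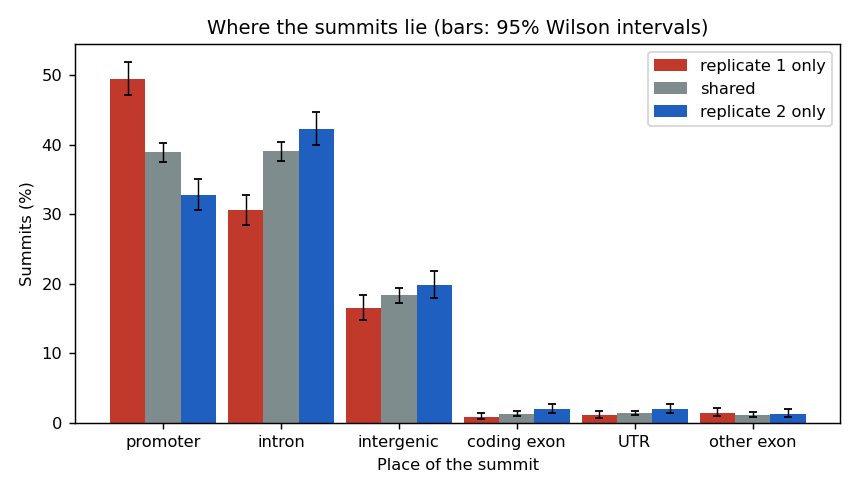
Share of summits (y axis, %) in each kind of place (x axis) for the 1703 members, the 4813 shared peaks and the 1702 peaks of replicate 2 only, with 95% Wilson intervals as error bars. Promoters hold 49.5% of members, 38.9% of shared peaks and 32.7% of peaks of replicate 2 only, and introns run in the opposite order.

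The promoter members sat upstream of their genes. Their median position was 87 bp upstream of the nearest start, with quartiles from 168.5 to 27 bp upstream, and 705 of 843 (83.6%) lay upstream. Upstream shares were 77.9% for shared and 65.7% for replicate 2 only promoter summits. Starts on both strands lay within 500 bp of 332 promoter members, or 39.4% (36.1 to 42.7%), which is the arrangement of divergent or closely packed genes. This compared with 32.2% (30.1 to 34.4%) and 17.8% (14.8 to 21.2%) in the other sets. The nearest start belonged to a protein-coding gene for 780 promoter members (92.5%) and to a non-coding RNA gene for 57 (6.76%).

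Over all places, the sequence around member summits was richer in A and T. The median G+C content within 50 bp of the summit was 36.6% for members, 41.6% for shared peaks and 44.6% for replicate 2 only. Within 200 bp of the summit the medians were 38.7, 41.9 and 43.9%. At promoters alone the medians within 50 bp were 36.6, 35.6 and 44.6%, so members were not below shared peaks there. Within 200 bp at promoters they were 37.2, 38.9 and 43.4%. Away from promoters the medians within 50 bp were 36.6, 43.6 and 44.6%. Over all high peaks the medians within 50 bp were 39.6% in replicate 1 and 42.6% in replicate 2, so G+C content moved with the replicate, and its part in the results that follow was not tested. Values within ranges of G+C content, chosen after the data were seen, are therefore given beside them. Where the sequence within 200 bp had under 38% G+C, 61.1% of members and 58.8% of shared peaks were promoter summits, with overlapping intervals, against 41.5% for replicate 2 only. From 38 to under 43% G+C the shares were 44.4, 38.2 and 29.7%, and at 43% or more they were 35.1, 25.9 and 30.8%. The intervals of members and shared peaks overlap in the middle range too, and those of members and replicate 2 only overlap in the highest.

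Members carried fewer Twist-type E-boxes than either reference set. CATATG or CACATG, on either strand within 50 bp of the summit, was present in 223 members, 13.1% (11.6 to 14.8%). Flanking windows centred 1000 bp to each side held one in 8.69%, a ratio of 1.51. Shared peaks had 30.5% (29.2 to 31.8%) against 8.06% in flanks, and replicate 2 only had 27.6% (25.5 to 29.8%) against 7.2%. Genome windows of the same length held one in 7.03%. Taken apart, CATATG was in 5.70% of members, 11.9% of shared peaks and 11.7% of replicate 2 only, and CACATG was in 7.93, 21.0 and 18.2%. Both motifs were thus present in smaller shares of members.

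The lower share held inside and outside promoters. At promoters, 8.78% (7.05 to 10.9%) of members had one of these E-boxes, about as many as their flanks with 8.54%, against 18.9% of shared and 18.1% of replicate 2 only promoter summits. Away from promoters the shares were 17.3, 37.9 and 32.2%. Down the 4 rank ranges members had 8.33, 9.86, 11.4 and 15.1%, while shared peaks had 33.7, 28.3, 29.5 and 29.3%. The highest members therefore did not have the larger shares. Within the 3 ranges of G+C content, from low to high, members had 7.28, 16.4 and 19.5%, shared peaks 16.3, 31.6 and 39.4%, and replicate 2 only 24.7, 27.8 and 28.6%. Among the kinds of member the share was 11.5% for those with a lower-ranked replicate 2 summit within 100 bp, 15.8% for those with a high one over 100 and up to 500 bp away, 10.6% for those with a lower-ranked one at that distance and 16.7% for those with none within 500 bp.

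**Figure D3:**
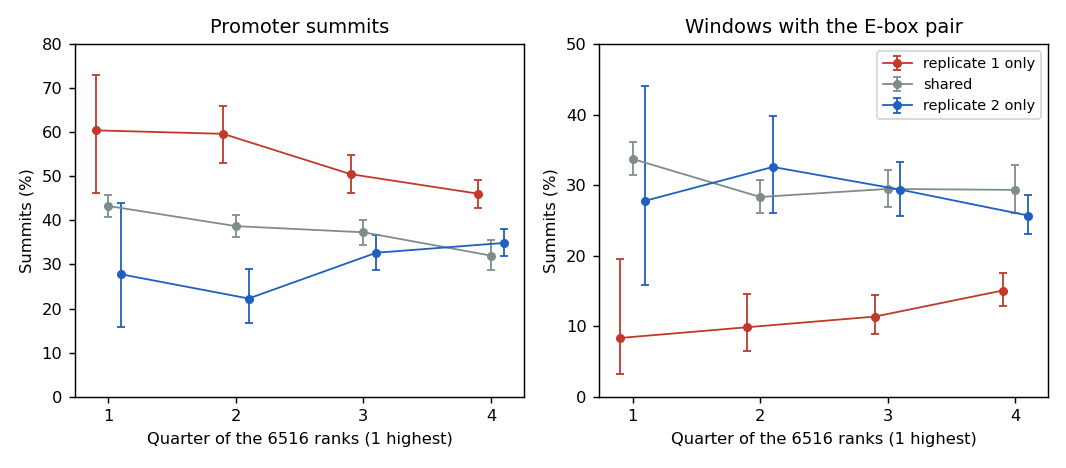
Promoter share (left) and share of summit windows with CATATG or CACATG (right), in % of summits, for the 4 rank ranges of each set, with 95% Wilson intervals. Members lie above the shared peaks on the left in every range, from 60.4 to 46.0%, and below both reference sets on the right, from 8.33 to 15.1%.

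Some other E-box types were also in smaller shares of members. CAGATG was in 7.05% of members against 5.05% of their flanks, and in 10.4% of shared peaks. CAGCTG was in 5.28% of members against 4.49% of flanks, in 7.13% of shared peaks and in 8.23% of replicate 2 only. CACGTG was in 1.47% of members (1.00 to 2.16%), 2.93% of shared peaks (2.49 to 3.44%) and 2.82% of replicate 2 only. CAAATG was in 10.7% of members against 9.42% of flanks, in 10.2% of shared peaks and in 10.5% of replicate 2 only. A binding motif of Mef2, a muscle differentiation factor, was in 4.87% of members and 3.05% of flanks, close to the 5.36% of shared peaks, where replicate 2 only had 2.35%. Of the motifs searched for Tinman, a heart factor (TCAAGTG or TTAAGTG), 4.64% of members held one, against 3.23% of flanks and 3.66% of genome windows.

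The motifs of basic promoters were more frequent among all members than in the reference sets. DRE (TATCGATA) was in 43 members, 2.52% (1.88 to 3.38%), against 0.176% of flanks and 0.277% of genome windows. Motif 1 (GGTCACAC) was in 30, 1.76%, against 0.323% of flanks and 0.211% of genome windows. Motif 7 (CATCNCTA) was in 32, 1.88%, against 0.323% of flanks and 0.639% of genome windows. In shared peaks the shares were 1.25, 0.769 and 1.04%. At least 1 of the 3 was in 97 members, 5.70% (4.69 to 6.90%), in 2.89% (2.45 to 3.40%) of shared peaks and in 2.59% (1.93 to 3.45%) of replicate 2 only. Of the 97, 90 were promoter summits.

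Among promoter summits alone, 10.7% (8.77 to 12.9%) of members held 1 of the 3, against 5.56% (4.61 to 6.69%) of shared and 6.10% (4.40 to 8.41%) of replicate 2 only. Windows centred on all 23694 annotated starts held them in 9.77% and all genome windows in 1.11%; the former are centred on the start and not on a summit. Member promoters were thus close to starts at large, while the promoters of both reference sets were below them. By rank range, from the highest down, the share over all places was 0, 5.16, 4.62 and 6.72% for members and 1.71, 2.68, 4.32 and 3.68% for shared peaks. The 0 stands for 48 members. The share was thus lower for members in the highest range and higher in the other 3, with overlapping intervals in each of the 4. Among the 203 members with no replicate 2 summit within 500 bp, 8 held one, 3.94% (2.01 to 7.58%), and 1 of these was a DRE, while 4 of the 77 matching peaks of replicate 2 did, 5.19%. TATAAA was in 18.9% of members, 16.1% of shared peaks, 9.64% of replicate 2 only and 11.8% of genome windows, and it moved with the A and T content of the sets, whose part was not tested.

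All 6-letter words, each taken with its reverse complement, were also counted, without a choice of motif. Among words in at least 5% of member windows, the largest ratio to the flanks was that of CGATAG, in 8.63% against 2.20%, a ratio of 3.92. TATCGA followed with 9.69% against 3.32%, a ratio of 2.92. The third was ATCGAT, in 7.52% against 2.97%. Each of these words shares letters with DRE, but they were in 147, 165 and 128 member windows, against 43 with a whole DRE. The fourth was ACTATC, in 6.52% against 2.82%. The fifth was GTCACA, with letters of Motif 1, in 6.17% against 2.94%, and the sixth was TTTAAA, in 18.0% against 9.01%. In shared peaks the leading word was ACATGT, in 12.5% against 2.76% of flanks, a ratio of 4.52. CACATG came next there with a ratio of 4.12, and CATATG had 3.61.

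**Figure D4:**
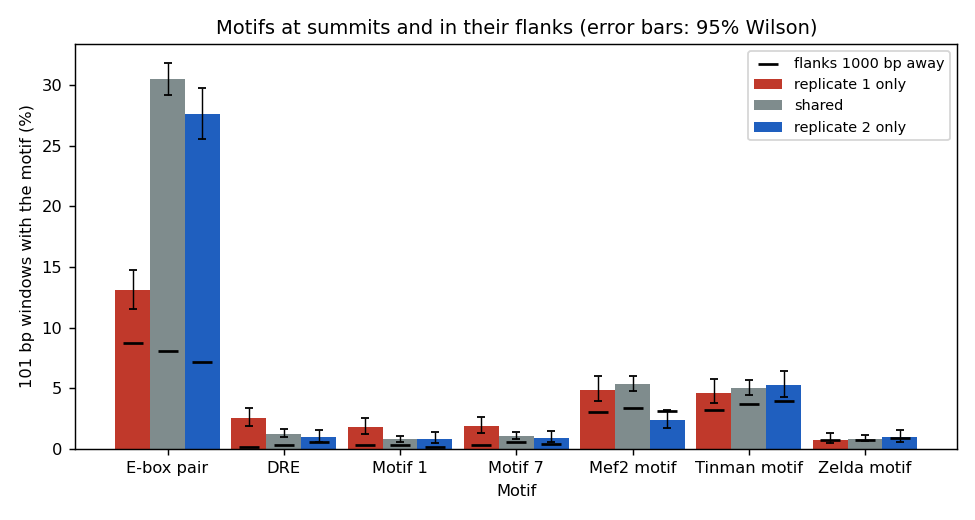
Share of windows within 50 bp of a summit with each motif (y axis, %) for the 3 sets, with 95% Wilson intervals; the black dashes are the flanking windows. The E-box pair (CATATG or CACATG) is in 13.1% of members and 30.5% of shared peaks, while DRE, Motif 1 and Motif 7 are each in a larger share of members.

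A member summit lay within 500 bp of a start of 1235 genes, 6.76% of the 18277 genes of the annotation. Of the 13968 protein-coding genes 1130 had one, which is 8.09% and is the level against which gene classes are read. Shared peaks reached 2213 (15.8%) and replicate 2 only 573 (4.10%). Of the 1130 genes, 813 (71.9%) had neither a shared summit nor one of replicate 2 only at a start, 215 also had a shared one and 127 also had one of replicate 2 only. Their median length was 3620 bp, against 3077 bp for genes with a shared summit, 5081 bp for replicate 2 only and 2164.5 bp for all protein-coding genes. Genes with a given name had a member in 10.5% of cases and genes known only by a CG number in 4.98%. Shared peaks reached 1573 of 7864 genes with a given name and 640 of 6104 with only a CG number. For replicate 2 only the shares were 5.58 and 2.20%. Non-coding RNA genes were reached less, 91 of 3289, or 2.77%, and tRNA genes in 2 of 290. Non-coding RNA genes were also reached less by shared peaks, 6.42 against 15.8% of protein-coding genes, and by replicate 2 only, 2.46 against 4.10%. These contrasts were thus not particular to members. A summit near starts of several genes was counted for each of them. The nearest start can thus belong to another gene than the one named. Among members named below this held at least at AspRS (nearest start Nmda1), GluProRS (AP-1sigma), Polr1D (brat), TfIIB (Bug22), mRpS24 (Apc2) and mRpL44 (Snr1). It also held at U2af38 (Stip1), Prp19 (rswl), Sf3b6 (Tnpo), Prosalpha6 (Npc1a), Vha16-5 (CG12299), ATPsynCF6 (Sec13), COX6B (CG33932), COX5B (IFT52) and mam (RN-tre).

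Over 12 lists of basic cell function, with 608 genes, 99 genes (16.3%) had a member at a start, 177 (29.1%) a shared summit and 28 (4.61%) one of replicate 2 only. Over 15 lists of development, with 214 genes, 24 (11.2%) had a member, 69 (32.2%) a shared summit and 40 (18.7%) one of replicate 2 only. The lists were put into these groups after the data were seen, with the histone list and the spermatid, serum and yolk protein list in neither, and no list was tested. With the 115 histone genes added, basic function had a member in 99 of 723 genes, 13.7%. At starts, development lists thus had fewer genes with a member than with a summit of replicate 2 only, and the lists of basic function had more. Among all protein-coding genes the start shares were 8.09% for members, 15.8% for shared peaks and 4.10% for replicate 2 only. Members thus also reached more genes at large than replicate 2 only. Without the histone genes, both groups of lists lay above these levels in every set, so this was not particular to members. Over the body or 5 kb, 103 development genes (48.1%) had a member, 158 (73.8%) a shared summit and 117 (54.7%) one of replicate 2 only. For the 608 genes of basic function the counts were 209 (34.4%), 350 (57.6%) and 108 (17.8%). By that count 23.7% of all protein-coding genes had a member, so development lists had the larger share there.

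Translation genes were among the lists with the largest counts. Of 85 cytosolic ribosomal protein genes 25 had a member at a start, 29.4%, against 45 with a shared summit and 9 with one of replicate 2 only. Of the 25, 16 had no summit of the other sets there. Among all protein-coding genes with a member it was 813 of 1130 (71.9%), which is the larger share. The highest lay 35 bp upstream of RpL30, at rank 1367 in replicate 1 with a replicate 2 summit of rank 7504 at 97 bp and a high one at 103 bp. The promoter of RpL30 was therefore high in both replicates. Another lay at RpS5a, at rank 1735 and 6523 in replicate 2, only just outside the limit, with the nearest high summit 14045 bp away.

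Of 33 aminoacyl-tRNA synthetase genes, which charge tRNAs, 8 had a member, and 1 had a summit of replicate 2 only. The highest were AspRS at rank 2649, AsnRS at 3181 and GluProRS at 3519. Of 53 translation factor genes 9 had one, led by eIF3m at rank 2684, eEF1alpha1 at 3753 and eIF2D at 3835. Mitochondrial ribosomal protein genes had a member in 7 of 73, 9.59%, near the level of all protein-coding genes, although 29 had a shared summit. Among those 7 were mRpS24, mRpL44 and mRpS31.

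Of 40 cell cycle genes 11 had a member, 10 a shared summit and 3 one of replicate 2 only. Replication licensing was represented by Mcm2 at rank 1233, dpa at 2986, Mcm7 at 3628 and Mcm5 at 3758, which encode subunits of the MCM helicase, and by dup, the Cdt1 homologue, at 5613. Mitotic genes with a member were CycA, CycB, the kinase gene polo, fzy, which activates the anaphase-promoting complex, and Incenp, at ranks from 4658 to 6046. The member of dpa had no replicate 2 summit within 3523 bp and that of Mcm7 none within 6183 bp, whereas that of Mcm2 lay 152 bp from a high one.

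Of 20 autophagy genes 6 had a member, 5 a shared summit and 0 one of replicate 2 only. They were Atg9, a membrane protein, at rank 1631, Atg2, a lipid transfer protein, at 2506, Atg13 at 5141, and Atg3, Atg5 and Atg8a of the ubiquitin-like conjugation pathway at 5215, 5399 and 5951. The nearest replicate 2 summit to that of Atg9 was 2792 bp away, and that of Atg2 was matched at 9 bp by one of rank 12432, with a high one at 194 bp. Proteasome subunits had a member at a start in 6 of 48 and vacuolar ATPase subunits in 4 of 33. Shared peaks reached 8 and 6 of these genes, and replicate 2 only 0 in both lists. The member shares, 12.5 and 12.1%, stand beside 8.09% of all protein-coding genes. For replicate 2 only that level was 4.10%, at which lists this short would hold few genes. Over the body or 5 kb the counts were 11 and 13 for members and 4 and 5 for replicate 2 only. At starts, Prosalpha6, Rpn10 and Rpn11 led the first list, at ranks 4540, 4795 and 4904, and Vha16-5, Vha68-2 and Vha44 the second, at 3037, 5293 and 5720.

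Of 80 genes of the transcription machinery 13 had a member, among them the RNA polymerase subunit gene Polr1D at rank 2694 and TfIIB at 3616. They also included Mediator subunits MED1, MED8, MED16 and MED21. Spliceosome genes had a member in 3 of 32 (U2af38, Prp19 and Sf3b6), oxidative phosphorylation genes in 6 of 86, among them ATPsynCF6, COX6B and COX5B, and heat shock protein genes in 1 of 25, Hsp60A. These 3 shares, 9.38, 6.98 and 4%, lie around or below the 8.09% of all protein-coding genes.

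**Figure D5:**
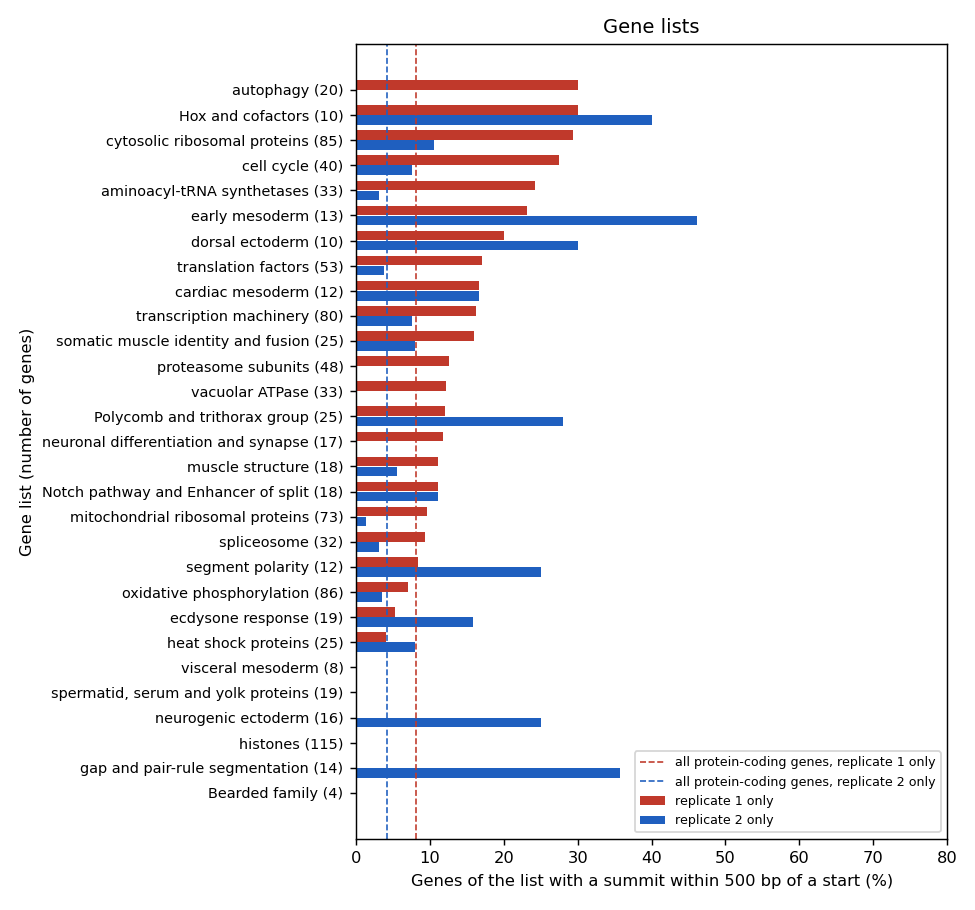
Share of the genes of each list (y axis, number of genes in brackets) with a summit within 500 bp of a start (x axis, %), for members and for the peaks of replicate 2 only, with dashed lines at 8.09 and 4.10% for all protein-coding genes. Autophagy, ribosomal protein and cell cycle genes have larger shares for members, and early mesoderm and segmentation genes have larger shares for replicate 2 only. Somatic muscle, muscle structure and neuronal genes also have larger shares for members, heat shock protein genes have a larger one for replicate 2 only, and cardiac genes have equal shares. Members also reach the larger share of all protein-coding genes.

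Mesoderm genes, the known targets of Twist, had members too, at starts and within genes. Of 13 early mesoderm genes 3 had a member at a start, against 7 with a shared summit and 6 with one of replicate 2 only. They were mthl1 at rank 4563, the FGF receptor gene htl at 4645 and T48, which acts in ventral furrow formation, at 6252. Within the gene body or 5 kb, 9 of the 13 had a member, 12 a shared summit and 11 one of replicate 2 only. Over all protein-coding genes the shares by that count were 23.7, 42.5 and 17.9%. Mef2 had 2 members beside 11 shared summits and 4 of replicate 2 only, and twi itself had 2 beside 6 and 3.

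Somatic muscle genes had a member at a start in 4 of 25. The highest lay at WASp and Vrp1, which act on actin in myoblast fusion, at ranks 3179 and 4033, and at lbe, a muscle identity homeobox gene, at 3834. No replicate 2 summit lay within 12547 bp of that of WASp, while that of lbe had one of rank 6939 at 21 bp. Cardiac genes had one in 2 of 12, Doc1 at rank 5746 and pnr at 5873, and muscle structure genes in 2 of 18, the tropomyosin gene Tm1 at 2431 and Act87E at 5123. Of the 8 visceral mesoderm genes 0 had one at a start, 2 had a shared summit there and 0 one of replicate 2 only. Within 5 kb the members near Alk, bin and bap ranked 3440, 3483 and 3749.

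Patterning genes outside the mesoderm differed from list to list. Of 14 gap and pair-rule genes and of 16 neurogenic ectoderm genes 0 had a member at a start. Replicate 2 only reached 5 and 4 of them, and shared peaks 3 in each list. The start share of all protein-coding genes was 8.09% for members, at which lists this short would hold few genes with one. Within the body or 5 kb, 5 and 9 genes of these lists had a member, 35.7% and 56.3%, against 23.7% of all protein-coding genes by that count. The highest of these lay near odd, kni and run, and near brk, vnd and ase, at ranks from 3718 to 5917. Of 10 Hox and cofactor genes 3 had one at a start (30%), Scr at rank 4118, pb at 4989 and hth at 5435, with 4 for replicate 2 only. Segment polarity genes had one in 1 of 12, inv, and within the body or 5 kb in 9. Dorsal ectoderm genes had one in 2 of 10, dpp, a BMP ligand, and pnr. Notch pathway genes had one in 2 of 18, mam, a coactivator of Notch, at rank 3157 and E(spl)m3-HLH at 3500.

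Polycomb and trithorax group genes had a member in 3 of 25, Sfmbt, Su(z)2 and trx, against 11 for shared peaks and 7 for replicate 2 only. Neuronal genes had a member in 2 of 17, Syx1A and pros, and ecdysone response genes in 1 of 19, Eip75B. Shared peaks reached 1 and 3 genes of the latter lists, and replicate 2 only 0 and 3. The member shares of the 3 lists, 12, 11.8 and 5.26%, lie around the 8.09% of all protein-coding genes. No member lay at a start of a Bearded family, histone or spermatid, serum and yolk protein gene, out of 4, 115 and 19. Replicate 2 only also had 0 in each of these lists, and shared peaks reached 1, 2 and 0 genes. Near Brd and Ocho the highest member within 5 kb was 1 and the same summit, at rank 4945, and near His3.3A and His4r the highest ranked 4904 and 5498.

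Counted over the gene body and 5 kb on each side, Eip75B, Ptp61F (a protein tyrosine phosphatase) and Tet held the most members, 6 each. These genes also held 8 shared summits each, and 4, 4 and 3 of replicate 2 only, over 113744, 132765 and 92952 bp. With 5 members each followed CG4820, klar, which acts in organelle transport, lncRNA:CR44357 and sba. CG4820 is 1364 bp long, so most of its window is the 5 kb on each side, where windows of neighbouring genes share summits. Another 32 genes tied at 4, among them foxo, Raf, pnt, pum, hth, Src64B and mam. Longer genes have more room, and these counts carry no test.

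Members were found on every chromosome except Y. The X chromosome held 278, 16.3%, against 14.1% of shared peaks and 13.3% of replicate 2 only, and chromosome 4 held 7, 0.411%, against 0.540 and 1.47%. Another high summit of replicate 1 lay within 1 kb of 26.2% of members and 25.7% of shared peaks. Intervals with several high summits held 4.17% of members and 7.21% of shared peaks.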

How the data were processed

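Anti-GFP chromatin immunoprecipitation from Twist-GFP embryos was sequenced as 2 biological replicates, numbered in the labels. The authors' deposited peak lists in dm6, per the labels, were used. Per the authors' accompanying records, each replicate was called against the same control file. No aligner or peak caller is named in the sources used here. Signal values, as deposited, are a score on no stated scale and gave only the order of peaks in each list. The authors' −log10 q-values were tied at the ceiling in 100% of the high rows, so they could not order them.

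Summits were matched within 100 bp between the 6516 highest rows of each replicate, the number of rows in the IDR list. Places followed Ensembl release 115 without transposable elements, with a promoter as 500 bp around a start taking precedence over exons, exons over introns, and introns over intergenic sequence. Both strands of 101 bp windows were searched for motifs, and flanks were centred 1000 bp to each side. Of 285 list entries given by symbol, 280 were found, 9 by synonym, and 12 lists used symbol patterns. Sequence came from the RefSeq dm6 assembly. Python 3.11.15, numpy 2.4.6, pandas 2.3.3 and matplotlib 3.10.9 were used, and the matching was tested on simulated data.

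The members, lists and rules were chosen with earlier results of these data known. The text names the genes nearest to the 20 highest members, the genes with most members (10, with ties counted and named in part), of each list the 3 genes with the highest members, and the members at the limit. Other genes of a list were named after their values were seen. Some genes that this rule names are not reported here. Windows were shown by rank, leaving out 1 chromosome arm and windows with over 30 UTR bases. Depth is unknown. Alternatives were other matching distances, list sizes and windows.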

Additional observations from a re-analysis of the deposited data

How the results depend on the processing

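No paired analysis was possible because both replicates belong to 1 group and no result comes from a test. The number of members was 2471 with matching within 50 bp, 1419 within 200 bp and 1327 with overlapping intervals matched, and it was 780 with shorter lists of the 2 upper rank ranges and 2898 with the 10000 highest rows. The promoter share was 59.4% and 46.0% with those list sizes, 40.3% with promoters of 250 bp and 58.6% with 1000 bp. The share with CATATG or CACATG was 15.1% with matching within 50 bp, 7.40% for motifs within 25 bp and 19.6% within 100 bp. The IDR share was 70.0% with matching within 50 bp, and 91.2% and 14.9% with the smaller and larger list. The share with a replicate 2 summit of some rank was 77.1% at 50 bp, 71.2% at 200 bp, 72.9% by overlap, 80.8% and 55.1% for the smaller and larger list, and 73.3% for the members with no high replicate 2 summit within 500 bp. For the 203 members with no replicate 2 summit within 500 bp, a subset chosen after seeing the data, the promoter, E-box and IDR shares were 64.0, 16.7 and 27.1%. Without replicate 2, over all high peaks of replicate 1, these shares were 41.7, 26.0 and 88.1%. Protein-coding genes with a member numbered 3306 when counted over the body and 5 kb, and 1246 (8.92%) by the nearest start. By the nearest start, proteasome subunits had a member in 3 of 48 and mitochondrial ribosomal proteins in 2 of 73, below that level. Aminoacyl-tRNA synthetases had 4 of 33 (12.1%) and the transcription machinery 8 of 80 (10%), nearer to it than by the start count. Cytosolic ribosomal proteins kept 22 of 85, the cell cycle 9 of 40 and autophagy 7 of 20. The cause of these shifts was not tested.

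Under 5 other matching rules and list sizes, members kept a higher promoter share and a lower share of these E-boxes than the peaks of replicate 2 only. The smallest gap was with the 10000 highest rows, 46.0 against 36.1% at promoters and 13.6 against 21.2% with an E-box, and the largest with the shorter lists, 59.4 against 25.4% and 11.7 against 37.7%. Depth is unknown, and 1 list per replicate gives no error between replicates.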

Other observations

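The rows of each list that follow the high rows, equal to them in number, were not used to choose the members, and were looked at after the data were seen. In replicate 1, 3277 of them had no summit within 100 bp among the high and following rows of replicate 2, and in replicate 2 the mirrored count was 3380. Promoters held 37.5% (95% Wilson interval 35.8 to 39.1%) of the unmatched rows of replicate 1 and 34.6% (33.0 to 36.2%) of those of replicate 2, so the intervals overlap. CATATG or CACATG was in 13.4% (12.3 to 14.6%) and 18.5% (17.2 to 19.8%), and DRE, Motif 1 or Motif 7 in 4.55% (3.89 to 5.31%) and 3.58% (3.0 to 4.26%). The median G+C content within 50 bp was 40.6% and 43.6%. These rows come from the same libraries as the members and are no independent replicate.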
